A study of Mus musculus with 8 samples.

Results

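Rag1, Rag2, Dntt, Il7r, Flt3 and Lsp1, genes of antigen receptor rearrangement and of early lymphoid priming, were followed on Affymetrix 3′ expression arrays of sorted mouse bone marrow cells. Probe sets annotated to exactly 1 of these symbols were taken, 9 in all, and the brightest of a gene's probe sets, by its mean on the 8 arrays, stood for the gene. This gave 6 of the 12393 genes measured. Dntt had 3 probe sets, Il7r had 2 and the other members had 1 each. Of the 3 groups, WT HSC (called LSK cells here) were Lin-Sca1+Kit+ cells of C57/BL6 marrow from animals 12 weeks old (3 arrays). WT CML LICs, the leukaemia-initiating cells of a retroviral mouse model of chronic myeloid leukaemia, were GFP+Lin-Sca1+Kit+ cells sorted on day 14 after bone marrow transplantation (3 arrays). Ezh2 KO CML LICs came from the same model and are labelled as knocked out for Ezh2, the methyltransferase of Polycomb repressive complex 2 (2 arrays). The labels give strain C57/BL6 and an age of 12 weeks for all 3 groups, and transplantation and GFP for the LICs only, so transplantation, infection and leukaemia cannot be told apart against LSK cells. The Ezh2 allele, how it was deleted, and how many animals made up an array are not stated in the labels. The repeats are called biological in the labels. Nothing says that they came from separate animals, so the p-values measure the spread between these arrays.

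B and T cells assemble their antigen receptor genes by V(D)J recombination. RAG1 and RAG2 together form the recombinase that cuts DNA beside V, D and J segments, general end joining proteins repair the breaks, and terminal transferase, the product of Dntt, adds untemplated bases at the joints. FLT3 and the interleukin 7 receptor are the receptors through which multipotent progenitors are guided towards the lymphoid lineages: Flt3 is expressed within the LSK fraction on multipotent and lymphoid-primed progenitors, and Il7r marks the common lymphoid progenitor that follows. Dntt and low Rag expression begin in lymphoid-primed progenitors, before B or T lineage commitment.

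Rag1 and Rag2 lie next to each other on mouse chromosome 2 and are transcribed towards each other from starts that are 24820 bases apart in the RefSeq annotation of GRCm38.p6. The 250 bases before the starts of Rag1, Rag2 and Dntt, the 3 members that encode the rearrangement proteins themselves, are printed here from RefSeq (GRCm38.p6), because these genes took different patterns over the arrays. They lie at chr2:101649533-101649782 on the minus strand, chr2:101624462-101624711 on the plus strand and chr19:41029025-41029274 on the plus strand. Capitals mark E-boxes, the letters CANNTG that E proteins and their relatives bind, which read the same on both strands. 
Rag1: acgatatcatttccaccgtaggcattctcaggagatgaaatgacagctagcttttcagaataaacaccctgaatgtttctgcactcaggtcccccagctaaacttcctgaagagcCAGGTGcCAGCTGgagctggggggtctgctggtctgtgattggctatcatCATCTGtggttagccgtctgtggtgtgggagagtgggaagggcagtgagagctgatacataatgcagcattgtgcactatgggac
Rag2: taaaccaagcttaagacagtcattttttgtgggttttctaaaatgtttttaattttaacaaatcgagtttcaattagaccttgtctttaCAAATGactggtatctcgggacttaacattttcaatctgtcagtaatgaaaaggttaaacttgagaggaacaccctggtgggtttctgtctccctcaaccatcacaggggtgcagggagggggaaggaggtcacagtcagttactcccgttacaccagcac
Dntt: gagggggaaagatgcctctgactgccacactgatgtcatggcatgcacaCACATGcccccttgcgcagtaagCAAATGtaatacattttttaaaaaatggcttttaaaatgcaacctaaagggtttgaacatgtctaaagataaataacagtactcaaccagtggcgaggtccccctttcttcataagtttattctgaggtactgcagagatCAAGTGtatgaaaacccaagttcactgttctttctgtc
There were 3 matches before Rag1, 1 before Rag2 and 3 before Dntt. E-box letters stood in 66.2% of the 32851 start sites in the table, so a match was common. The narrower form CAGGTG, on either strand, stood in 17.2% of them. Among the 5 members with an entry (all but Lsp1) it stood before Rag1 alone. Other motifs were searched too, and TGGGAA, in 21.6% of the start sites, also stood before Rag1 alone of these 5. A match describes these letters only.

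The array medians ranged from 6.42 to 6.57 on the log2 scale. Precision is limited by the small number of arrays. The 27 unspiked bacterial control probe sets had means of up to 4.01, and a gene at or under that level was taken as not above background. Ezh2 was at 8.94 and 9.55 on the Ezh2 KO arrays, against 11.26 to 11.44 on the WT LIC arrays and 10.77 to 11.07 on the LSK arrays. Ezh2 signal well above background thus remained on the knockout arrays, and whether its probes lie in a deleted part of the gene was not examined. Kit, a surface marker of the gate, was at 9.69 or higher on all 8 arrays, and Ly6a, which encodes Sca1, was not analysed here. WT LIC replicate 3 stood apart from the other WT LIC arrays: over genes it correlated with replicates 1 and 2 at 0.9711 and 0.9734, while those correlated with each other at 0.9879. Xist, transcribed from the inactive X chromosome, was at 4.35 on this array and at 10.68 and 11.06 on the others of its group, and the 7 measured erythroid genes had a mean of 5.22 there against 8.68 and 8.04. The Y-linked Eif2s3y was at 9.21 or higher on every LIC array and at 1.63 or lower on every LSK array. On the Ezh2 KO arrays Xist was at 10.69 and 11.18, and on the LSK arrays at 12.45 to 12.69. Sex-linked transcripts thus differed between LSK cells and LICs, and this difference cannot be told apart from leukaemia there. They varied among the LICs too: every LIC array except WT LIC replicate 3 combined a high Xist level with the Y-linked signal. The comparison of Ezh2 KO with WT LICs was therefore not matched for these transcripts either. WT LIC replicate 3 had the Y-linked signal with the lowest Xist level of the 8 arrays. Results below are given with and without WT LIC replicate 3, and the part of these differences in them was not tested.

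The study asked how WT LICs differ from LSK cells and what loss of Ezh2 changes within LICs. Between WT LICs and LSK cells all 6 members had lower means in the WT LICs, with a median log2 difference of -1.89 against 0.02 over all genes, and 1 of the 6, Lsp1, passed the test in that direction (limma, Benjamini-Hochberg adjusted p under 0.05), as did 2.15% of all genes (3.42% in either direction). Between Ezh2 KO and WT LICs all 6 had higher means without Ezh2, with a median of 1.92 against -0.05 over all genes. Here 1 of the 6, Rag1, passed as higher, as did 0.589% of all genes (0.637% in either direction). With Ezh2 KO LICs set against LSK cells, 2 had higher and 4 had lower means in the knockout, with a median of -0.43 against -0.02, and Rag1 again passed as higher, as did 1.61% of all genes (3.47% in either direction). The comparisons share their groups, so a low WT LIC level enters both of the first comparisons. On these bulk samples fewer cells that express a gene and less RNA per cell cannot be told apart. Without WT LIC replicate 3, 4 members passed between WT LICs and LSK cells (Rag2, Dntt, Flt3 and Lsp1, all lower, beside 3.08% of genes). Between Ezh2 KO and WT LICs 3 then passed (Rag1, Rag2 and Dntt, all higher, beside 0.767%). Between the knockout and LSK cells 2 did (Rag1 higher, Flt3 lower, beside 5.19% in either direction). With WT LIC replicate 1 or 2 left out instead, 1 and 0 members passed in the first comparison. In the second 0 and 1 passed, and in the third 1 and 1. Of the 12393 genes 176 and 177, 25 and 37, and 287 and 300 then passed.

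**Figure D1:**
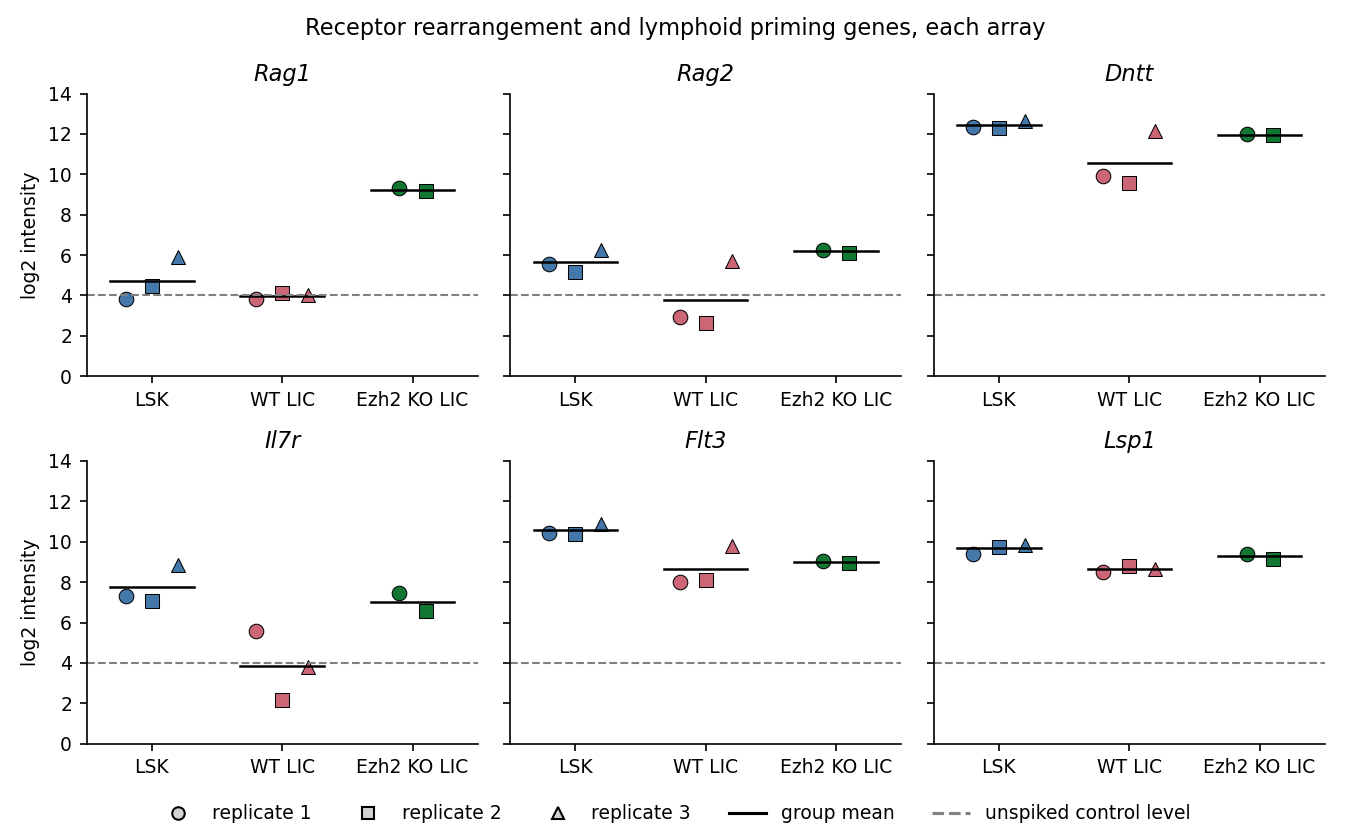
Log2 intensity of each member (y axis) on each array of LSK cells, WT LICs and Ezh2 KO LICs (x axis). Symbols give the replicate, black bars the group mean and the dashed line the level of 4.01 of unspiked control probe sets; Rag1 stands at 9.18 and 9.31 on the Ezh2 KO arrays alone, and WT LIC replicate 3 (triangle) lies above its group in Rag2, Dntt and Flt3.

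Rag1, the catalytic subunit of the recombinase, was highest on the Ezh2 KO arrays and low on the others. It was at 3.81, 4.46 and 5.90 (log2) on the LSK arrays, at 3.82, 4.11 and 4.02 on the WT LIC arrays, and at 9.31 and 9.18 on the Ezh2 KO arrays. The knockout arrays were far above the other 6, and the LSK and WT LIC arrays overlapped. In deposited linear intensities these were 634 and 581 in the knockout, 14.1 to 17.2 in WT LICs and 14.0 to 59.7 in LSK cells. Rag1 rose 5.26 (SE 0.53) from WT to Ezh2 KO LICs, at least 37.7-fold against the control level (adjusted p = 0.00985), and ranked 18 of 12393 genes by p. The gap between the lowest knockout array and the highest WT LIC array was 5.08. Against LSK cells it was 4.52 higher (SE 0.53, 23.0-fold, adjusted p = 0.00887), with a gap of 3.28. The difference between WT LICs and LSK cells in Rag1 did not exceed their spread ( -0.74, 95% interval -1.84 to 0.36, adjusted p = 0.43), and the higher LSK mean rested on LSK replicate 3, without which the difference was -0.15. Against WT LICs the adjusted p was 0.0509 without WT LIC replicate 1 and 0.0581 without Ezh2 KO LIC replicate 2, with differences of 5.18 and 5.33. Against LSK cells it was 0.0551 and 0.0529 without Ezh2 KO LIC replicates 1 and 2.

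Rag2, the partner subunit that RAG1 needs for cutting and that binds trimethylated lysine 4 of histone H3, had a different pattern from Rag1. It was at 5.57, 5.14 and 6.26 on the LSK arrays, at 2.92, 2.62 and 5.72 on the WT LIC arrays, and at 6.26 and 6.10 on the Ezh2 KO arrays. WT LIC replicates 1 and 2 lay under background, and replicate 3 lay within the LSK range. The knockout arrays overlapped the LSK arrays and lay 0.39 above the highest WT LIC array. The difference between Ezh2 KO and WT LICs was 2.43 (SE 0.86, 95% interval 0.41 to 4.44), or at least 4.5-fold against the control level, and did not pass (adjusted p = 0.366). Without WT LIC replicate 3 it was 3.41 (SE 0.35, adjusted p = 0.0136). Against LSK cells WT LICs differed by -1.90 (SE 0.77, adjusted p = 0.22), and without that array by -2.88 (SE 0.32, adjusted p = 0.00753). Ezh2 KO LICs and LSK cells differed by 0.52 (95% interval -1.49 to 2.53, adjusted p = 0.803). With WT LIC replicate 1 or 2 left out instead of 3, Ezh2 KO LICs were 2.01 and 1.86 above WT LICs (adjusted p = 0.629 and 0.54). WT LICs then differed from LSK cells by -1.49 and -1.34 (adjusted p = 0.444 and 0.455). Rag2 was detected in LSK cells on 3 of 3 arrays, where Rag1 was above the control level on 2 of 3.

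The rest of the Rag region was compared by position. Of the 8 other protein-coding genes that start within 1 Mb of Rag2 in RefSeq, 5 were measured: Iftap on the Rag2 side, and Traf6, Commd9, Trim44 and Fjx1 on the Rag1 side. These genes were chosen after the data were seen. None passed between Ezh2 KO and WT LICs in limma at an adjusted or an unadjusted p under 0.05. The nearest measured genes, Iftap, which encodes an adaptor for transport in cilia and overlaps Rag2 in the annotation, and Traf6, a signalling adaptor of toll-like and interleukin 1 receptors, differed by -0.10 (SE 0.16) and 0.13 (SE 0.25). Commd9 differed by 0.08 (SE 0.19), Trim44 by 0.01 (SE 0.14) and Fjx1 by 0.44 (SE 0.99). The difference of Rag1 was 5.26 on the same scale.

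**Figure D2:**
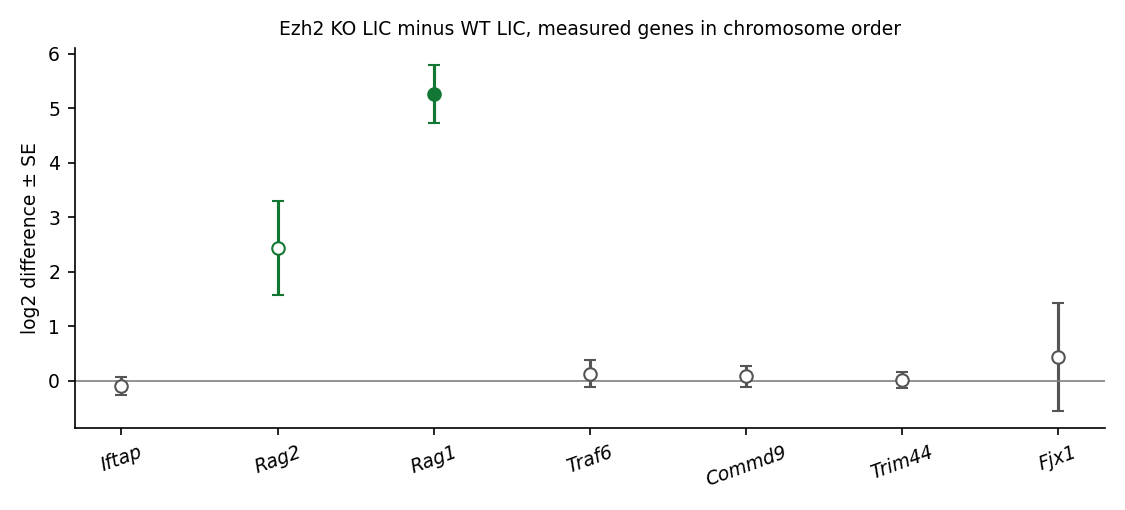
Log2 difference between Ezh2 KO and WT LICs, with its standard error (y axis), for the measured genes of the Rag region in chromosome order (x axis, not to scale). Green marks Rag1 and Rag2 and a filled point an adjusted p under 0.05; Rag1 stands at 5.26 and Rag2 at 2.43, while the 5 other genes lie between -0.10 and 0.44.

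Dntt was bright in all groups. It was at 12.32, 12.31 and 12.63 on the LSK arrays, at 9.89, 9.58 and 12.14 on the WT LIC arrays, and at 11.98 and 11.92 on the Ezh2 KO arrays. Its other probe sets had the same order of group means. Of these, 1 was at 11.94 to 12.31 in LSK cells, at 9.61, 9.73 and 12.17 in WT LICs, and at 11.73 and 11.79 in the knockout. The last was at 11.57 to 12.54, then at 8.72, 8.06 and 11.17, and at 10.85 and 10.62. On each probe set WT LIC replicates 1 and 2 were the lowest of the 8 arrays, and WT LIC replicate 3 lay above both knockout arrays. The WT LIC and LSK arrays did not overlap in the brightest probe set, by 0.16. Of all genes, 13.2% were lower in WT LICs without overlap. In the probe set where WT LIC replicate 3 was at 12.17, that array lay within the LSK range. The difference in the brightest probe set was -1.88 (SE 0.61, 3.69-fold), which did not pass (adjusted p = 0.139). Without WT LIC replicate 3 it was -2.69 (SE 0.18, adjusted p = 0.00195). Ezh2 KO LICs differed from WT LICs by 1.41 (SE 0.68, adjusted p = 0.489), and by 2.22 (SE 0.20, adjusted p = 0.0123) without that array. They differed from LSK cells by -0.47 (95% interval -2.06 to 1.12, adjusted p = 0.769), and by -0.32 and -1.29 in the other probe sets. With WT LIC replicate 1 or 2 left out instead of 3, Ezh2 KO LICs were 1.09 and 0.94 above WT LICs (adjusted p = 0.729 and 0.678). WT LICs then differed from LSK cells by -1.56 and -1.41 (adjusted p = 0.321 and 0.304).

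WT LIC replicate 3 exceeded the mean of the other WT LIC arrays by 2.95 in Rag2, 2.41 in Dntt and 1.72 in Flt3, excesses larger than those of 99.8%, 99.6% and 99.0% of all genes. Replicates 1 and 2 differed by 0.30, 0.31 and 0.11 in these genes. In Rag1, Il7r and Lsp1 replicate 3 differed from that mean by 0.05, -0.07 and -0.03. Replicates 1 and 2 themselves differed by 3.39 in Il7r, and by 0.29 and 0.30 in Rag1 and Lsp1, so in Il7r a value near their mean says little.

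Il7r encodes the alpha chain of the interleukin 7 receptor, whose signal early lymphoid progenitors need to survive and divide. It was at 7.32, 7.07 and 8.84 on the LSK arrays, at 5.56, 2.18 and 3.80 on the WT LIC arrays, and at 7.45 and 6.58 on the Ezh2 KO arrays. WT LICs lay below the other groups without overlap, with replicate 1 alone above background, and the knockout and LSK arrays overlapped. The dimmer probe set was at 3.70, 5.30 and 5.22 in LSK cells, at 3.54, 2.39 and 2.00 in WT LICs, and at 5.44 and 5.40 in the knockout, so both probe sets were lowest in WT LICs.

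The difference of WT LICs from LSK cells in Il7r was -3.90 (SE 0.85, 95% interval -5.88 to -1.91), at least 13.3-fold against the control level, and just missed the threshold (adjusted p = 0.0557). It passed without WT LIC replicate 1 (-4.76, adjusted p = 0.0386), with array weights (adjusted p = 0.0259), and under 3 further alternatives of the 19. Ezh2 KO LICs were 3.17 above WT LICs (SE 0.95, 95% interval 0.95 to 5.39, at least 8.04-fold), which did not pass (adjusted p = 0.28), and over the alternatives the adjusted p ran from 0.15 to 0.603. Ezh2 KO LICs and LSK cells differed by -0.72 (95% interval -2.95 to 1.5, adjusted p = 0.743) in the brighter probe set and by 0.67 (SE 0.59) in the dimmer, so the order of these groups was not settled.

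Flt3, the receptor tyrosine kinase of multipotent and lymphoid-primed progenitors, lay below the LSK level in both LIC groups. It was at 10.41, 10.38 and 10.89 on the LSK arrays, at 8.01, 8.12 and 9.78 on the WT LIC arrays, and at 9.07 and 8.97 on the Ezh2 KO arrays. The LSK arrays were above all LIC arrays, and the knockout arrays lay within the WT LIC range. WT LICs differed from LSK cells by -1.92 (SE 0.45, 3.79-fold, adjusted p = 0.0654), and by -2.50 (SE 0.20, adjusted p = 0.00307) without WT LIC replicate 3. Ezh2 KO LICs differed from LSK cells by -1.54 (SE 0.51, 2.91-fold, adjusted p = 0.149), and by the same size with an SE of 0.20 without that array (adjusted p = 0.0147). The difference between Ezh2 KO and WT LICs was 0.38 (95% interval -0.80 to 1.56, adjusted p = 0.821), and 0.95 (SE 0.22, adjusted p = 0.133) without that array. With WT LIC replicate 1 or 2 left out instead of 3, WT LICs differed from LSK cells by -1.61 and -1.66 (adjusted p = 0.18 and 0.176).

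Lsp1 encodes an actin-binding protein of lymphocytes and myeloid cells, so it is less particular to lymphoid cells than the other members. It was at 9.40, 9.75 and 9.85 on the LSK arrays, at 8.52, 8.82 and 8.64 on the WT LIC arrays, and at 9.41 and 9.16 on the Ezh2 KO arrays. The WT LIC arrays were the lowest, without overlap, and the knockout arrays reached the lowest LSK array. Lsp1 fell by 1.01 from LSK cells to WT LICs (SE 0.17, 2.01-fold, adjusted p = 0.0276). The adjusted p was 0.0795 and 0.0868 without LSK replicates 2 and 3, and 0.0921 and 0.0663 without WT LIC replicates 1 and 2. The knockout was 0.63 above WT LICs (SE 0.19, 95% interval 0.18 to 1.08, adjusted p = 0.29) and differed from LSK cells by -0.38 (SE 0.19, adjusted p = 0.335).

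**Figure D3:**
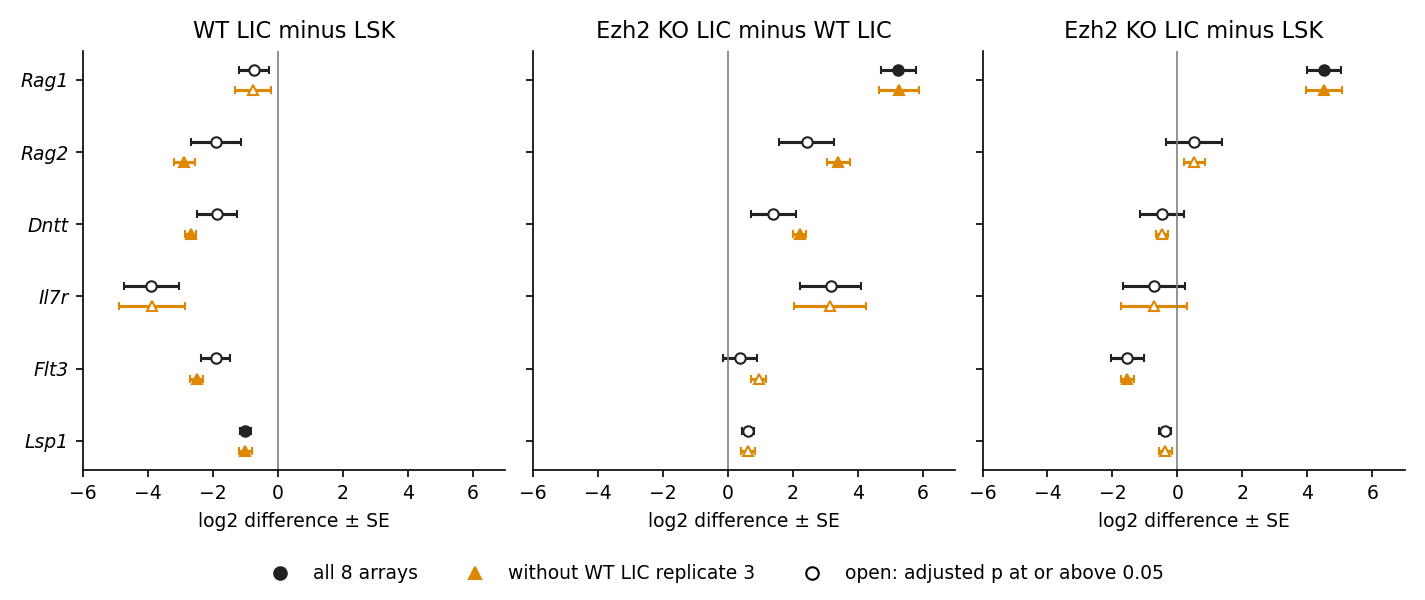
Log2 difference of each member (rows) with its standard error (x axis) in the 3 comparisons, from all 8 arrays (circles) and without WT LIC replicate 3 (triangles). Filled symbols have an adjusted p under 0.05. With and without that array, Rag1 is filled in both comparisons of the knockout, and Lsp1 between WT LICs and LSK cells. Rag2 and Dntt (WT LICs against either other group) and Flt3 (both comparisons with LSK cells) are filled only without it.

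The members thus took different orders of level. Rag1 was highest in the knockout, with LSK cells and WT LICs not told apart. On the brightest probe sets, group means in Dntt, Il7r, Flt3 and Lsp1 ran from LSK cells through Ezh2 KO LICs to WT LICs. In Rag2 they ran from Ezh2 KO LICs through LSK cells to WT LICs. In none of these 5 genes did groups next to each other in that order differ at the threshold with all arrays. In the dimmer Il7r probe set the knockout mean, 5.42, lay above the LSK mean, 4.74. Over the 8 arrays, which share these 3 groups, Dntt correlated with Rag2 at 0.94 and with Flt3 at 0.89, and Rag1 with Rag2 at 0.57, Dntt at 0.31 and Flt3 at -0.08 (Pearson, given as a description). Arrays without overlap between Ezh2 KO and WT LICs, all higher in the knockout, were found in 4 of 6 members (Rag1, Rag2, Il7r and Lsp1) and in 13.2% of all genes.

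The genes most like each member over the 8 arrays were taken from 2800 that were above background in a group, varied by an SD of at least 0.5 and were not predicted. Nearest to Rag1 were Bmpr1a, a receptor of bone morphogenetic proteins (r = 0.991), Fgf13 (0.973) and Sorcs2 (0.960). Bmpr1a was at 7.47 and 7.38 on the knockout arrays, at 2.82 to 3.28 in WT LICs and at 2.66, 3.44 and 5.15 in LSK cells, so LSK replicate 3 was the highest of its group, as in Rag1. These genes were chosen for their likeness to Rag1, so their level in the knockout is a description, with no test. Nearest to Dntt were Sdc1 (0.967), Dusp22, a dual-specificity phosphatase (0.965), and Satb1, a chromatin organiser of lymphoid progenitors (0.964). Dusp22 was also nearest to Rag2 (0.960), followed by Unc13b (0.949) and Phf13 (0.946). Satb1 was at 10.68 to 11.10 in LSK cells, at 9.17, 9.41 and 10.38 in WT LICs, and at 10.66 and 10.70 in the knockout. Nearest to Flt3 were Rassf2 (0.974), the homeobox gene Hoxa9 (0.970) and Cdkn1b, which encodes the cell cycle inhibitor p27 (0.969). Fbxw4 (0.970), Klhl7 (0.963) and Fam114a1 (0.930) were nearest to Il7r, and Peli2 (0.981), Slc25a45 (0.966) and Tspyl4 (0.955) to Lsp1. The points share 3 groups, and some matches also followed the spread within WT LICs: Phf13 was at 7.64, 7.86 and 9.24 on these arrays, with replicate 3 highest as in Rag2.

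The genes whose products repair RAG breaks gave no call. Of 14 measured genes of end joining and the damage response, none passed in limma in any comparison, and at an unadjusted p under 0.05 none did for WT LICs against LSK cells, none for Ezh2 KO against WT LICs and 2 for Ezh2 KO LICs against LSK cells, where 20.6%, 11.1% and 19.2% of all genes were. Their medians were 0.00, -0.18 and -0.26, and all 14 had a lower mean in Ezh2 KO than in WT LICs. Hmgb2, a DNA-bending cofactor of the recombinase, was at 12.05 to 12.58 on all arrays. Xrcc6, which encodes the Ku70 end-binding protein, was at 9.52 to 10.22, and Prkdc, the DNA-dependent protein kinase gene, was at 7.82 and 7.95 in the knockout, at 8.15 to 8.42 in WT LICs and at 8.18 to 8.69 in LSK cells. Polm, which encodes a DNA polymerase related to terminal transferase, was at 5.35, 5.41 and 3.55 in WT LICs. It was the single gene of the list that passed without WT LIC replicate 3. WT LICs were then above both other groups in the tests against LSK cells and the knockout. These genes, apart from Polm, were chosen after their values were seen.

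Genes of interleukin 7 and FLT3 signalling were measured for 15 of 17, and none passed in limma in any comparison. At an unadjusted p under 0.05 there were 7, 2 and 7 for WT LICs against LSK cells, Ezh2 KO against WT LICs and Ezh2 KO LICs against LSK cells, beside 20.6%, 11.1% and 19.2% of all genes, with medians of -0.25, 0.04 and -0.12. Stat5b, a transcription factor downstream of the interleukin 7 receptor, differed by -0.75 (SE 0.19, adjusted p = 0.0782) between WT LICs and LSK cells. Crlf2, which pairs with the interleukin 7 receptor alpha chain in the receptor for Tslp, differed by -0.77 (SE 0.18, adjusted p = 0.0606). The STAT5-induced inhibitor Cish was at 7.55 to 8.10 in LSK cells and at 8.21 to 9.47 on the LIC arrays (difference of WT LICs 1.18, SE 0.33, adjusted p = 0.0981). Without WT LIC replicate 3, Tslp passed, lower, in both comparisons with LSK cells, and Cish passed, higher, for Ezh2 KO LICs. Stat5b and Crlf2 were chosen after their values were seen.

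Among 29 measured transcription factors of lymphoid priming, 3 rose from WT to Ezh2 KO LICs and none fell, with a median of 0.35. Pou2af1, a coactivator of octamer-binding factors in B cells, was at least 42.6-fold higher (adjusted p = 0.00985), Spib, an Ets factor of B and plasmacytoid cells, at least 7.82-fold (adjusted p = 0.00753) and Id3, an inhibitor of E proteins, at least 1.75-fold (adjusted p = 0.0261). Without WT LIC replicate 3 there were 6, with Ets1, Bach2 and Satb1 added. Between WT LICs and LSK cells Id1, another inhibitor of E proteins, rose 3.14 (SE 0.22, adjusted p = 0.000957) and Gata3 fell by 1.09 (SE 0.19, adjusted p = 0.0276), with a median of -0.41. Without that array 9 passed, 2 higher and 7 lower. Between Ezh2 KO LICs and LSK cells Id1, Spib, Id3 and Pou2af1 rose, Id1 by 3.94 (SE 0.25, adjusted p = 0.000616).

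The factors best known upstream of these members were looked up by name after the data were seen. Ebf1, which with Pax5 sets B cell identity, was at 9.23 and 8.80 without Ezh2, at 7.06, 2.70 and 5.73 in WT LICs, and at 2.84, 4.84 and 6.23 in LSK cells. Its difference of 3.85 between the LIC groups (SE 1.34) did not pass (adjusted p = 0.361). Pax5 was at 2.78 or lower on all arrays, under the control level. Foxo1, an activator of the Rag genes and of Il7r, was at 5.62, 5.17 and 8.09 in WT LICs, at 7.74 and 8.38 in the knockout and at 7.02 to 8.95 in LSK cells, so WT LIC replicate 3 was again the highest of its group. Tcf3, which encodes the E2A proteins, was at 8.57 to 9.03 on all arrays.

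Genes of the pre-B cell receptor and early B cells had the largest list median of those examined between the LIC groups, 3.77 over 10 measured genes, of which 4 rose and none fell. They were Vpreb3 (4.29, SE 0.35), Igll1 (5.23, SE 0.47) and Cd79a (3.69, SE 0.34), each at an adjusted p of 0.00753, and Blnk, at least 11.0-fold higher (adjusted p = 0.0351). The same 4 passed without WT LIC replicate 3. Among surface genes of lymphoid-primed progenitors, Ly6d, which marks B-cell-biased lymphoid progenitors, was the 1 of 12 that rose, by 3.48 (SE 0.45, 11.1-fold, adjusted p = 0.0256). It was at 7.99 and 7.94 in the knockout, at 4.11 to 4.92 in WT LICs and at 5.0 to 6.65 in LSK cells.

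**Figure D4:**
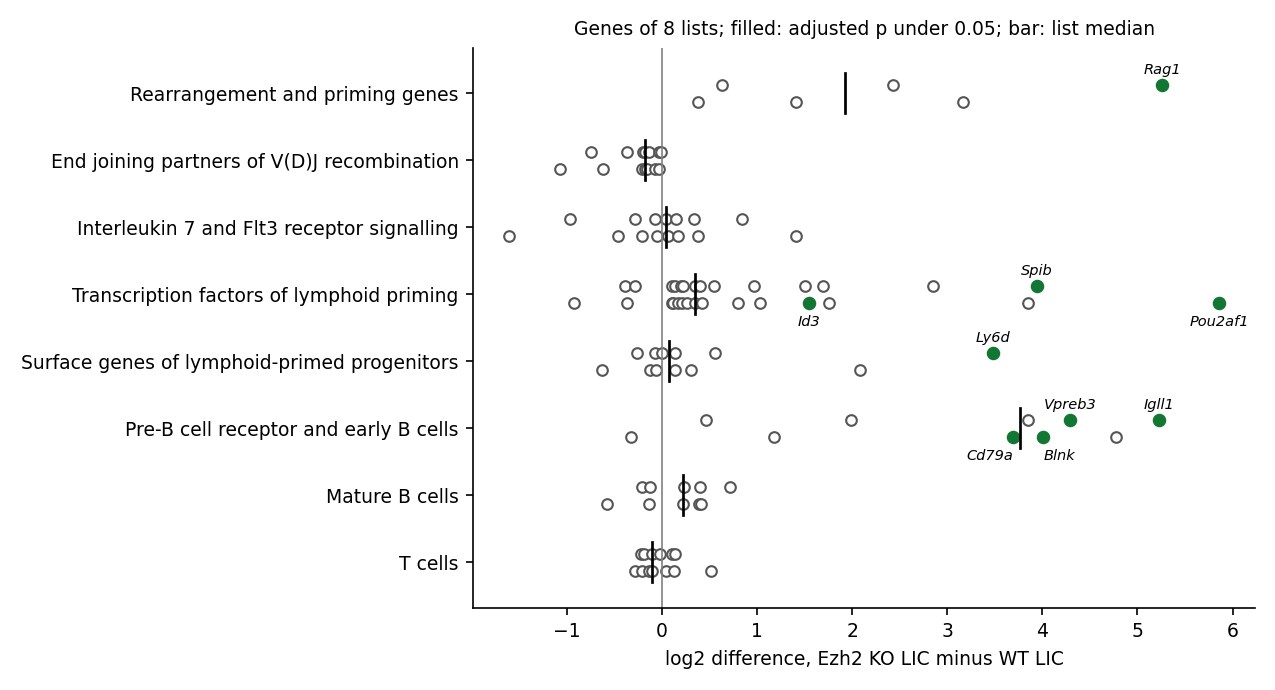
Log2 difference between Ezh2 KO and WT LICs (x axis) for each gene of 8 lists (rows); filled green points have an adjusted p under 0.05 and are named, and black bars are list medians. Rag1 stands with Pou2af1, Igll1 and Vpreb3 to the right, while the medians of end joining, mature B and T cell genes are -0.18, 0.22 and -0.10.

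Markers of other cells that a sort could hold moved as follows. Mean log2 levels of the pre-B list were 9.30 and 10.00 on the knockout arrays, 6.48 to 6.97 in WT LICs and 6.32 to 7.46 in LSK cells, so early B cell transcripts moved with Rag1, and their part in the Rag1 result was not tested. Of 10 measured mature B cell genes none passed in limma between the LIC groups, and 1 had an unadjusted p under 0.05. Their mean level was 5.83 and 6.43 in the knockout, 5.45 to 6.58 in WT LICs and 5.52 to 5.94 in LSK cells, and Ms4a1, Cd22 and Fcer2a were under the control level in every group. Of 13 T cell genes none passed in limma or had an unadjusted p under 0.05 between the LIC groups, with mean levels of 4.20 to 4.56 on all 8 arrays. Cd3g, Cd8a, Cd8b1 and Ptcra were at or under the control level in every group.

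In the comparison with LSK cells, 3 of 8 measured genes of antibody-secreting cells fell in WT LICs, Jchain, Igk and Ighm. The list's mean level was 8.41 to 8.79 in LSK cells, 5.46 to 6.14 in WT LICs and 5.70 and 5.99 in the knockout, with none of the 8 under the control level in LSK cells. Of 9 measured stem cell and gate genes 2 fell, Kit and Hlf, the latter by 2.57 (SE 0.34, adjusted p = 0.0124), and all 9 had lower means in WT LICs. Monocyte genes fell for 2 of 10, Lyz2 and F13a1. The part of these shifts in the lower Lsp1, Flt3 and Il7r levels of WT LICs was not tested. On WT LIC replicate 3 the granulocyte list was at 7.80 against 8.77 and 8.82 on the other WT LIC arrays, and the lymphoid priming factors at 7.59 against 7.13 and 6.97. No gene of the 7 erythroid and 12 granulocyte genes measured passed with all arrays in limma in any comparison, and at an unadjusted p under 0.05 there were 2 erythroid genes in each comparison and 2, 1 and 0 granulocyte genes. Without that array, the setting in which more members passed, 4 erythroid genes (Epor, Tfrc, Gata1 and Klf1) passed as higher in WT LICs than LSK cells, and Epor and Klf1 as lower in the knockout than in WT LICs. Car1 passed as lower in the knockout when set against LSK cells. Of the granulocyte genes Lcn2 and Ltf passed as higher and Csf3r as lower in WT LICs against LSK cells. The part of these shifts in the members' calls was not tested.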

How the data were processed

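Per the labels' protocols, cells were sorted into lysis buffer and total RNA was amplified and labelled with biotin. RMA is named in the submitters' processing notes. The authors deposited linear intensities, from 1.94 to 19343.1, for 22690 probe sets on arrays already brought to a common distribution (SD of sorted log2 values at most 0.08). The design had assumed log2 values, so log2 was taken with no pseudocount and the same test was used. Control probe sets (64), those with several symbols (691) and those not listed (1555) were left out. One limma 3.58.1 model (R 4.3.3) took all 8 arrays with group as the only term (5 residual degrees of freedom), 2-sided, and genes were called at a Benjamini-Hochberg adjusted p under 0.05 over 12393 genes. Folds against a group mean not above 4.01 are lower bounds, taken against that level. The fit was tested on simulated data. Exact permutation tests were not used: 3 arrays against 3 cannot reach the threshold. No batch is given, so batch and group cannot be told apart.

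Members, lists and alternatives were chosen with earlier results of these data known. Named were the members, Ezh2, the gate genes, up to 4 called genes of each list with the smallest p, and the 3 genes most like each member; all other genes were named after their values were seen. Same-numbered repeats had deviations correlated at -0.05 to 0.14, so the number was not taken as pairing them. The alternatives rescaled the arrays (cyclic loess, median centring, quantiles, a pseudocount of 16), dropped dim genes, or left out each array. Others changed the fit (array weights, a robust trended prior, the replicate block, only the groups compared). Others used the mean of probe sets, or tested every probe set, with each member still read from its brightest. List counts without WT LIC replicate 3 were added after seeing the data. Plots were drawn with matplotlib 3.10.9.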

Additional observations from a re-analysis of the deposited data

How the results depend on the processing

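Of 339 values of members under the alternatives, 312 kept their direction and their side of the threshold, 18 passed that had not, 9 no longer passed and none changed sign. Rag2 has none under the filter on dim genes, which left it out. A member's difference could not change under that filter, the trended robust prior, or only the groups compared. Nor could it with each probe set tested separately, or without an array of a group not compared. These settings could move only the side of the threshold. Other probe sets of Dntt and Il7r entered only through the mean of probe sets. For Il7r the dimmer one differed by 0.67 between Ezh2 KO LICs and LSK cells, against -0.72 in the brighter. Between WT LICs and LSK cells the count of 424 genes became 917 with array weights and 252 with the replicate block, and ranged from 176 to 643 over the arrays left out, highest without WT LIC replicate 3. The 1 member called there became 3 with the filter on dim genes or the trended robust prior, 5 with array weights and 2 with the mean of probe sets (0 to 4 over the arrays left out). Between Ezh2 KO and WT LICs the 79 genes became 119 with array weights, 35 with only the groups compared and 36 with the replicate block (25 to 146 over the arrays left out; 0 to 3 members). Between Ezh2 KO LICs and LSK cells the 430 genes became 147 with the replicate block (118 to 643 over the arrays left out; 0 to 2 members), and the members called became 2 with only the groups compared. The cause of these shifts was not tested. The fits that leave out an Ezh2 KO array assume that the lone array varies like the other groups.

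Under the replicate block Lsp1 lost its call between WT LICs and LSK cells (adjusted p = 0.068), Flt3 gained one (adjusted p = 0.0425), and no other call of a member changed. Array weights were lowest for WT LIC replicate 3, at 0.513, and highest for WT LIC replicate 2, at 2.33. Median centring moved the higher share of the calls from 37.0% to 58.3% between WT LICs and LSK cells and from 46.5% to 66.6% between Ezh2 KO LICs and LSK cells (57.3% with cyclic loess), and the median of all genes from 0.02 to 0.15 and from -0.02 to 0.11. No member changed direction. Rag1, Rag2 and Il7r lay near the control level in WT LICs, so their differences there are bounded by background rather than measured in full.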

Other observations

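Granzyme transcripts were higher on the Ezh2 KO arrays than on the LSK arrays, and varied among the WT LIC arrays. Gzma, which encodes the protease granzyme A of cytotoxic cells, was at 7.15 and 6.57 on the Ezh2 KO arrays, at 5.04, 3.43 and 2.24 on the WT LIC arrays and at 2.34 to 2.78 on the LSK arrays, and in the knockout exceeded LSK cells by at least 7.21-fold (limma adjusted p = 0.0249). It was the 1 of 9 measured genes of the natural killer cell list that passed there. Gzmb, another granzyme gene, was at 9.56, 9.13 and 5.48 in WT LICs, at 6.67 and 7.01 in the knockout and at 3.62 to 4.89 in LSK cells; WT LICs differed from LSK cells by 3.61 (SE 1.00, adjusted p = 0.0981), and without WT LIC replicate 3 it passed as higher in both comparisons with LSK cells. Nkg7 and Prf1, of cytotoxic granules, were at 10.85 to 12.12 and 7.86 to 8.64 on all arrays, while Ncr1, Klrk1, Eomes and Tbx21 had means at or under the control level in every group. Klrd1, a receptor chain of these cells, was at 4.22 to 5.82 in LSK cells and at 2.89 or lower in WT LICs, at least 2.31-fold lower (adjusted p = 0.0366), a call it lost without WT LIC replicate 3.

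Surface genes of progenitors moved in both directions between LSK cells and WT LICs. Cd48, an adhesion receptor that multipotent progenitors gain, rose 1.07 (SE 0.13, adjusted p = 0.00948), and Cd27, a receptor of the tumour necrosis factor family, fell by 0.99 (SE 0.18, adjusted p = 0.0326). Both kept this call without WT LIC replicate 3.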
